A study of Homo sapiens with 5 samples.

Results

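Collagen crosslinking and hydroxylation enzymes were followed in gefitinib-resistant HCC827/GR cells and in the parental, gefitinib-sensitive HCC827 cells, a human lung adenocarcinoma line labelled with a deletion in exon 19. The set is defined by gene family, and the rule for its members uses no measured difference. It comprises the lysyl oxidases LOX, LOXL1, LOXL2, LOXL3 and LOXL4, the lysyl hydroxylases PLOD1, PLOD2 and PLOD3, and the prolyl 4-hydroxylase alpha subunits P4HA1 and P4HA2. Of these 10 genes, 9 have an entry of their own among the 37181 entries of the expression table, and 6 of the 9 reached the mean of 0.5 FPKM required for testing. FPKM are fragments counted per transcript length and per mapped fragments of the library, so that levels of different genes can be compared per length. HCC827/GR cells carry the same exon 19 label and were derived from HCC827 by stepwise gefitinib exposure for more than 6 months. Whether they are 1 clone or a population, and whether the drug was present at harvest, is not given in the sources used here. RNA sequencing of replicates 1, 2 and 3 of HCC827/GR and replicates 2 and 3 of HCC827 was examined. Nothing states that the replicates are separate cultures, so the p-values measure the spread between these libraries, which may be technical.

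Collagen chains are modified in the endoplasmic reticulum before they fold and are secreted. Prolyl 4-hydroxylase, a tetramer of alpha subunits with protein disulfide isomerase (P4HB), makes the hydroxyproline that stabilizes the triple helix, and the lysyl hydroxylases make the hydroxylysine that serves for glycosylation and for strong crosslinks. Outside the cell, the copper-dependent lysyl oxidases turn lysine and hydroxylysine side chains into aldehydes that link collagen and elastin molecules. In carcinoma, these enzymes are known for stiffening the matrix, and LOX, LOXL2, PLOD2, P4HA1 and P4HA2 are known targets of the hypoxia-inducible factors.

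In both cell lines the hydroxylases had moderate levels and LOX, LOXL1, LOXL3 and LOXL4 very low ones, while LOXL2 could not be measured on its own. The largest difference among the 6 tested enzymes was a rise of PLOD3 by 1.52-fold, and none of the 6 differed by 2-fold or more. By contrast, COL4A1 and COL4A2, chains of type IV collagen, for which the PLOD3 enzyme is known to be needed, rose by 8.22-fold and 3.59-fold. Of the other type IV chains tested, COL4A5 fell to 0.545 of its HCC827 level, and COL4A6, also lower, did not pass. These fold changes are on the log2(FPKM + 1) scale and come from limma, a linear model fitted to all 16189 tested entries.

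The libraries were checked for other cells before the comparison. Of the 8 epithelial markers, 5 have an entry not joined to another gene (EPCAM, CDH1, KRT8, KRT18 and KRT19), and all 5 exceeded 1 FPKM in every library. Their sum was 1063 to 1182 FPKM in HCC827 and 442.7 to 572.7 FPKM in HCC827/GR. In limma, 4 of them fell (EPCAM, CDH1, KRT18 and KRT19), and KRT8 had an unadjusted p of 0.0177. NKX2-1, whose entry joins another gene, had 0.963, 0.762 and 0.415 FPKM in HCC827/GR and 4.6 and 4.0 FPKM in HCC827, and KRT7 and NAPSA were not analysed here. Of the 9 fibroblast markers, the 8 with an entry not joined to another gene stayed below 1 FPKM in every library. Their sum was 0.825 to 1.20 FPKM in HCC827/GR and 1.06 to 1.21 FPKM in HCC827. Within it, PDGFRB had 0.278, 0.184 and 0.184 FPKM in HCC827/GR and 0.00777 and 0.0147 FPKM in HCC827. LUM, FAP and COL3A1 went the other way, lower in every HCC827/GR library than in both HCC827 libraries. The groups overlapped in the rest of the 8, among them DCN and THY1, which were near 0. These genes were named after their values were seen. PDGFRA, the fibroblast marker outside this sum, shares its entry with another gene. The endothelial sum was 0.0672 to 0.108 FPKM in HCC827/GR and 3.42 to 4.44 FPKM in HCC827. In HCC827, nearly all of it came from PECAM1, which had 4.34 and 3.32 FPKM there and a listed value of 0 in each HCC827/GR library. PECAM1 has 10 entries, and these values are of the entry with the highest mean only. They are thus not the level of the whole gene. The 3 leukocyte markers with an unshared entry summed to at most 0.112 FPKM, CD68 shares its entry with several genes, and CD3E was not analysed here. The part of these marker differences in the results was not tested.

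The regulatory windows of the lysyl hydroxylases are shown because PLOD3 was the member that passed the test and PLOD2 is the one best known for its response to hypoxia. Each line gives the 250 bases before the RefSeq transcription start on GRCh38.p14, read 5′ to 3′ on the strand of the gene. Capitals mark the core of the hypoxia response element, searched as ACGTG or GCGTG on both strands, so that a match on the other strand reads CACGT or CACGC. The windows are PLOD1 at chr1:11934467-11934716 on the plus strand, PLOD2 at chr3:146161185-146161434 on the minus strand and PLOD3 at chr7:101217582-101217831 on the minus strand.
PLOD1: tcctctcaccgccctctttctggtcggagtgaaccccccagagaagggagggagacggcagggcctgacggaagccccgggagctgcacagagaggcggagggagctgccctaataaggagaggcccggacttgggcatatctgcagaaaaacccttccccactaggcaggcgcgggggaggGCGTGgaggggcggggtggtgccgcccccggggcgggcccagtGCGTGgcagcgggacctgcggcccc
PLOD2: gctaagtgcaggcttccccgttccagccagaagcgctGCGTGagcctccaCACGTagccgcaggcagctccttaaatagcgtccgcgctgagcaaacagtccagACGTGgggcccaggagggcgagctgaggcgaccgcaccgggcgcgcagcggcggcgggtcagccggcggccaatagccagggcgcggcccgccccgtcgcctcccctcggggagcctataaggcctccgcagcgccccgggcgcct
PLOD3: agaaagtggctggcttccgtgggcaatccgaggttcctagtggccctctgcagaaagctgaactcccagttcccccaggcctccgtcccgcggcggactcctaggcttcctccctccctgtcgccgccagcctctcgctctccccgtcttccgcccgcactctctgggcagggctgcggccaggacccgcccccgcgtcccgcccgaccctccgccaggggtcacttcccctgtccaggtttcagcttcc
PLOD2 holds 3 cores, which begin 213, 200 and 146 bases before the start. PLOD1 holds 2, at 68 and 25 bases, and PLOD3 holds 0. For PLOD2, unlike the other members, the first bases after this start were found in no GENCODE transcript, so its window may not be the promoter used in these cells. Over the full windows, which run on to 50 bases after the start, 5 of the 9 genes with an entry in the promoter table (LOX, LOXL3, P4HA1, PLOD1 and PLOD2) hold a core in at least 1 window, or 55.6%. The same is true of 52.4% of all 27305 genes in that table. A core in a window is a match of letters and says nothing about binding.

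The members spanned about the same order of levels in both cell lines. In HCC827/GR cells, PLOD3 was highest (mean 18.9 FPKM), followed by PLOD2 (12.3) and PLOD1 (11.9), whose libraries overlapped, and then P4HA1 (6.69), P4HA2 (2.88) and LOXL3 (1.02). In HCC827 cells, PLOD2 came first (14.2 FPKM), then PLOD3 (12.2), PLOD1 (8.25) and P4HA1 (7.12), and the libraries of the last pair overlapped. P4HA2 (2.10 FPKM) and LOXL3 (0.694) again followed. In both lines the 3 lowest were LOX, LOXL1 and LOXL4, and neighbours in their order overlapped. PLOD3 therefore took the first place from PLOD2 in HCC827/GR, and in each line the libraries of PLOD3 and PLOD2 did not overlap. Averaged over the 5 libraries, PLOD3 lay above 95.9% of all entries in the table, and LOX above 40.1%.

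**Figure D1:**
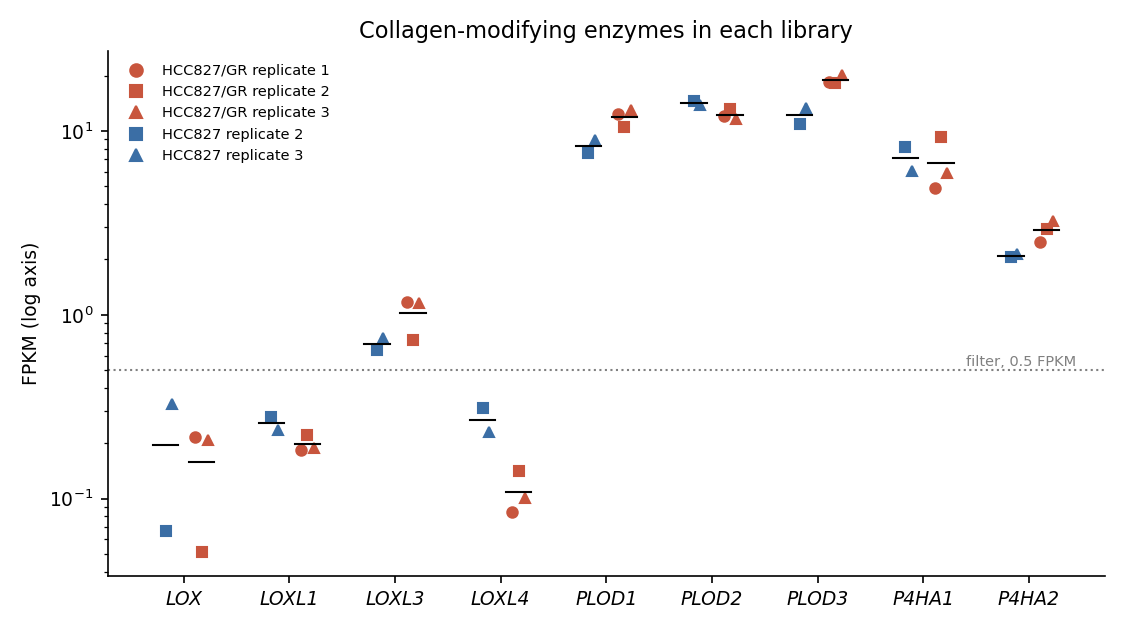
FPKM (log axis) of the 9 enzymes with an entry, in each HCC827 (blue) and HCC827/GR (red) library, with marker shape for the replicate number, black bars for group means and a dotted line at the filter of 0.5 FPKM. The hydroxylases lie between 2.05 and 20.3 FPKM, whereas LOX, LOXL1 and LOXL4 stay below 0.33 FPKM in every library.

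The 4 lysyl oxidases with an entry of their own were scarce in both cell lines. LOX, the founding member of the family, which lies on chromosome 5 from 122063195 to 122078360 (GENCODE release 29, GRCh38, minus strand), was measured at 0.216, 0.0514 and 0.209 FPKM in replicates 1, 2 and 3 of HCC827/GR, and at 0.0669 and 0.325 FPKM in replicates 2 and 3 of HCC827. The groups overlapped, and replicate 2 was the lowest library in each line. LOXL1, known for its part in elastic fibre formation (chromosome 15, 73925989 to 73952137), had 0.184, 0.223 and 0.188 FPKM against 0.277 and 0.237 FPKM. Every HCC827/GR library was below both HCC827 libraries, with a difference smaller than 0.1 FPKM between the group means (0.198 and 0.257 FPKM).

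LOXL4 (chromosome 10, 98247690 to 98268250) differed most in proportion within the family. Its level was 0.0849, 0.141 and 0.101 FPKM in replicates 1 to 3 of HCC827/GR, and 0.309 and 0.229 FPKM in replicates 2 and 3 of HCC827, so that the groups did not overlap. The HCC827 mean was 2.47 times the HCC827/GR mean. LOX, LOXL1 and LOXL4 were below the filter of 0.5 FPKM and were not tested with the others. Without the filter, limma gave LOXL4 an unadjusted p of 0.0202 and a Benjamini-Hochberg adjusted p of 0.171, LOXL1 an adjusted p of 0.616 and LOX one of 0.881.

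LOXL3, which like LOXL2 and LOXL4 carries scavenger receptor domains, was the most abundant lysyl oxidase with an entry of its own (chromosome 2, 74532414 to 74555690). Resistant replicates 1 to 3 gave 1.18, 0.726 and 1.17 FPKM, and parental replicates 2 and 3 gave 0.640 and 0.748 FPKM. HCC827/GR replicate 2 lay among the HCC827 values, so the groups overlapped. In limma the log2 difference was 0.25 (standard error 0.16, 95% interval -0.17 to 0.66), with an adjusted p of 0.388.

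LOXL2 has no entry of its own. Its annotated transcripts are listed under an entry named ENTPD4, a neighbouring gene for a nucleotide-hydrolysing enzyme, and the values of the pair cannot be told apart. The joined entry had 25.4, 26.8 and 23.1 FPKM in HCC827/GR and 14.2 and 15.3 FPKM in HCC827. It rose by 0.73 on the log2 scale (standard error 0.11, adjusted p = 0.0217 from limma), but the adjusted p was above 0.05 without each library in turn except HCC827/GR replicate 3 (0.0467 to 0.105). How much of this belongs to LOXL2 was not measured, and LOXL2 is left out of all counts and sums.

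Among the lysyl hydroxylases, PLOD3 showed the largest difference. It encodes LH3, the family member that also glycosylates hydroxylysine and is needed for type IV collagen, and lies on chromosome 7 from 101205977 to 101218420. Its expression was 18.4, 18.2 and 20.3 FPKM in HCC827/GR replicates 1, 2 and 3 and 11.0 and 13.4 FPKM in HCC827 replicates 2 and 3. The groups did not overlap, and the HCC827/GR libraries lay close together. On the log2 scale PLOD3 rose by 0.60 (95% interval 0.29 to 0.92, standard error 0.12), with an adjusted p of 0.0448 from limma, and the exact permutation test gave p = 0.1 (two-sided), the smallest that 3 libraries against 2 allow. PLOD3 ranked 1666 by p among the 16189 entries tested. The call was marginal, since the adjusted p was between 0.0740 and 0.144 when any 1 of the 5 libraries was left out, while the log2 fold change stayed between 0.47 and 0.73.

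PLOD1 encodes LH1, which hydroxylates lysines of the triple helix, and lies on chromosome 1 from 11934205 to 11975538. It had 12.3, 10.5 and 13.0 FPKM in HCC827/GR and 7.60 and 8.90 FPKM in HCC827. Every HCC827/GR library was above both HCC827 libraries. The difference of 0.48 on the log2 scale (95% interval 0.14 to 0.83, standard error 0.13) had an unadjusted p of 0.0163 and did not pass after adjustment (adjusted p = 0.0955, limma).

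PLOD2 encodes LH2, which hydroxylates the telopeptide lysines that form the most stable crosslinks (chromosome 3, 146069440 to 146163653). Its values were 12.0, 13.1 and 11.7 FPKM in HCC827/GR and 14.6 and 13.8 FPKM in HCC827. The groups did not overlap, with HCC827/GR lower, but the distance between the nearest libraries was below 1 FPKM. Limma gave a log2 difference of -0.19 with a standard error of 0.096 (adjusted p = 0.277), and its 95% interval, -0.44 to 0.055, leaves room for a fall to 0.735 of the HCC827 level or a rise to 1.04 times it.

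P4HA1, the main catalytic alpha subunit in most cells (chromosome 10, 73007217 to 73096974), did not separate the cell lines. Replicates 1, 2 and 3 of HCC827/GR had 4.88, 9.31 and 5.88 FPKM, and replicates 2 and 3 of HCC827 had 8.22 and 6.02 FPKM. Replicate 2 was the highest library of each line. Its log2 difference of -0.11 (limma, adjusted p = 0.855, standard error 0.28) had the widest interval of the tested members, from -0.84 to 0.63, and its sign turned without HCC827/GR replicate 1 (0.067) or HCC827 replicate 2 (0.090).

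P4HA2, the second alpha subunit (chromosome 5, 132191838 to 132295315), had 2.48, 2.93 and 3.24 FPKM in HCC827/GR and 2.05 and 2.15 FPKM in HCC827. The HCC827/GR libraries were all higher. A log2 difference of 0.32 (95% interval 0.0076 to 0.63, standard error 0.12) came with an unadjusted p of 0.0464 and an adjusted p of 0.177 from limma.

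**Figure D2:**
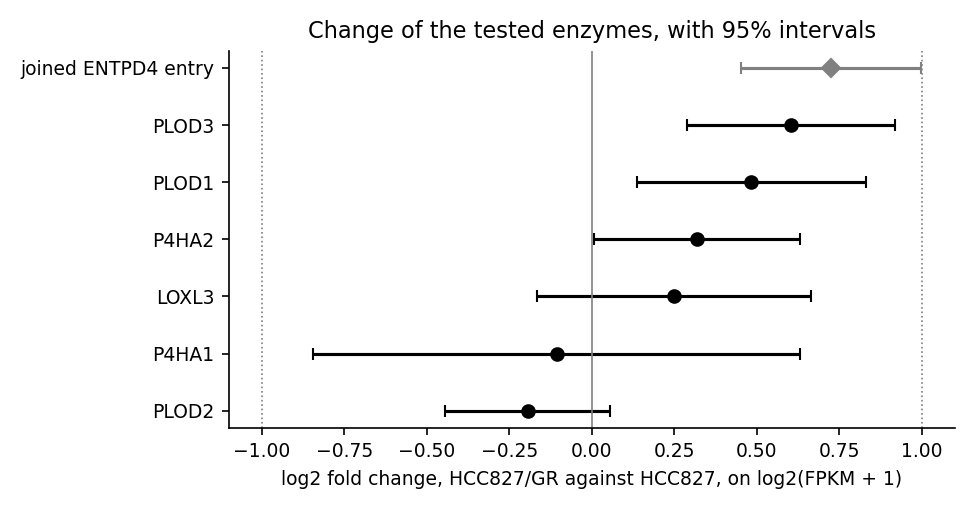
Log2 fold change of HCC827/GR against HCC827 on log2(FPKM + 1) for the 6 tested enzymes (black) and the entry that joins ENTPD4 and LOXL2 transcripts (grey), with 95% intervals from limma and dotted lines at a 2-fold change. The intervals of all 6 enzymes lie within the dotted lines, and those of PLOD3, PLOD1 and P4HA2 lie above 0.

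Counted over the 6 tested members, 1 rose (PLOD3) and 0 fell at an adjusted p under 0.05. Among all 16189 entries, 5.26% rose and 5.71% fell by the same rule. At an unadjusted p under 0.05, 3 were higher and 0 lower, beside 13.4% and 13.8% of all entries. By the study's own thresholds, a 2-fold difference in either direction and an unadjusted p under 0.05, 0 of 6 passed, beside 6.94% of all entries. Every HCC827/GR library was above every HCC827 library in 3 members (PLOD1, PLOD3 and P4HA2) and below in 1 (PLOD2), which compares with 22.8% and 23.4% of all entries. The median log2 fold change of the 6 was 0.28, and that of all entries was 0.0014. With 6 members, these counts are a description of the set.

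The make-up of the families was compared in addition, because a share within a family does not depend on how libraries were scaled to each other. The summed FPKM of the 3 lysyl hydroxylases was 43.2 ± 1.62 (SD, n = 3) in HCC827/GR and 34.6 ± 2.03 (SD, n = 2) in HCC827, with no overlap. Within this sum, the PLOD2 share was 28.1%, 31.4% and 25.9% in HCC827/GR replicates 1 to 3 and 43.9% and 38.2% in HCC827 replicates 2 and 3. The PLOD3 share went the other way, with 43.0%, 43.5% and 45.1% against 33.1% and 37.1%. PLOD1 took 27.6% ± 2.22 (SD, n = 3) and 23.8% ± 1.25 (SD, n = 2). Its share, too, was higher in every HCC827/GR library, with the nearest libraries at 25.1% and 24.7%.

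The 4 lysyl oxidases with an entry summed to 1.49 ± 0.302 FPKM in HCC827/GR (SD, n = 3) and 1.42 ± 0.174 FPKM in HCC827 (SD, n = 2), and the groups overlapped. Their make-up differed more than their sum. LOXL3 took 70.9%, 63.6% and 70.0% in the HCC827/GR libraries and 49.5% and 48.6% in the HCC827 libraries, while LOXL4 took 5.10%, 12.4% and 6.09% against 23.9% and 14.9%. The sum of P4HA1 and P4HA2 was 9.57 ± 2.47 FPKM (SD, n = 3) against 9.22 ± 1.48 FPKM (SD, n = 2), and the P4HA2 share overlapped, with 31.0% ± 6.23 and 23.1% ± 4.47. Over the 12 sums and shares, the exact permutation test (two-sided) gave p = 0.1 for the lysyl hydroxylase sum and for the shares of PLOD2, PLOD3, LOXL3 and LOXL4, and the smallest Benjamini-Hochberg adjusted value was 0.24. A design of 3 against 2 cannot go below 0.1. In each library, the lysyl hydroxylases together had 23.4 to 36.6 times the summed FPKM of the 4 lysyl oxidases.

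**Figure D3:**
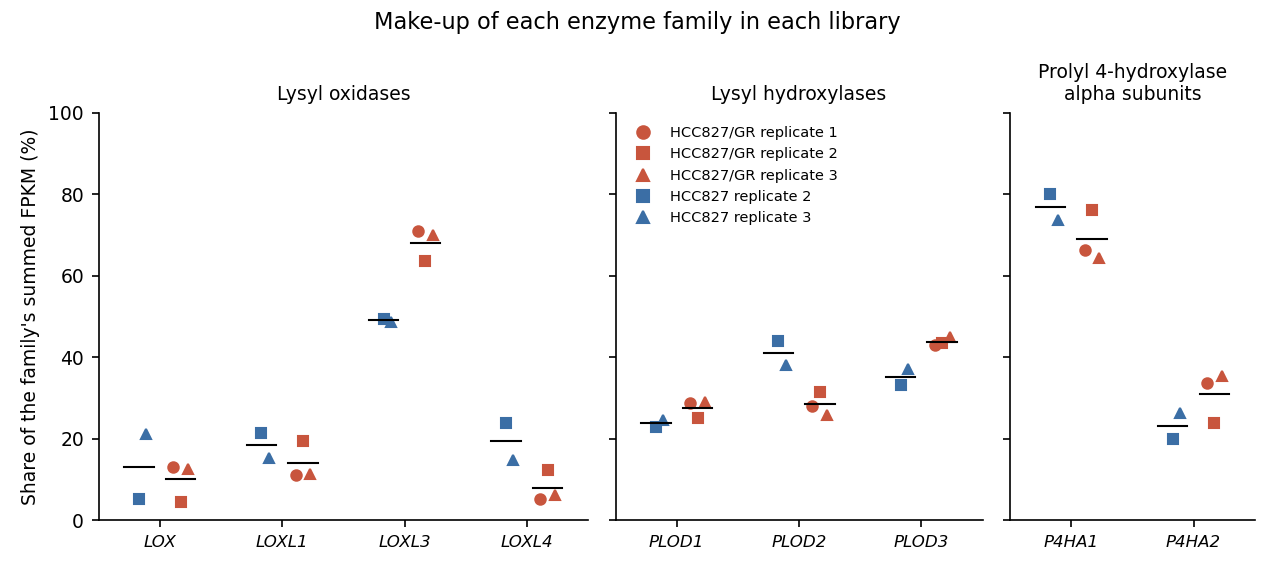
Share (%) of each member in the summed FPKM of its family, for each HCC827 (blue) and HCC827/GR (red) library, with marker shape for the replicate number and black bars for group means. The lysyl oxidase sum leaves out LOXL2, which has no entry of its own, and LOX, LOXL1 and LOXL4 in it are below the filter of 0.5 FPKM. In HCC827/GR the shares of PLOD1, PLOD3 and LOXL3 are higher and those of PLOD2 and LOXL4 lower in every library, and P4HA1 and P4HA2 overlap.

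To place the enzymes among the genes they work with, 8 lists of 93 further genes were examined, of which 56 were tested. In all, 8 rose and 3 fell at an adjusted p under 0.05 in limma, a rule by which 5.26% of all entries rose and 5.71% fell. At an unadjusted p under 0.05, 13.4% of all entries were higher and 13.8% lower, which are the shares to set beside the unadjusted counts below. All of the differences below are on the log2(FPKM + 1) scale.

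Of the 13 tested partners of the hydroxylases in the endoplasmic reticulum, 1 rose, 0 fell and 12 did not pass. At an unadjusted p under 0.05, 2 were higher and 1 was lower (SERPINH1, named after its values were seen). The entry of P3H3, which did not pass, joins another gene. The one that rose was P3H2, a prolyl 3-hydroxylase known to act on basement membrane collagen, with 14.8, 14.7 and 12.9 FPKM in HCC827/GR and 6.46 and 7.23 FPKM in HCC827 (log2 fold change 0.95, adjusted p = 0.0130). P3H1, singled out after its values were seen, had a difference of nearly the same size (0.93) with an adjusted p of 0.0509. P4HB, the subunit that P4HA1 and P4HA2 require, had 64.8 ± 13.5 FPKM (SD, n = 3) and 60.1 ± 1.90 FPKM (SD, n = 2), and PPIB, a prolyl isomerase of the same complex as P3H1, 69.3 ± 6.76 and 59.6 ± 8.70 FPKM. Neither passed (adjusted p = 0.837 and 0.403). Per length, P4HB was thus more abundant than both alpha subunits together. The median log2 fold change of the list was 0.084. Without each library in turn except HCC827/GR replicate 3, the adjusted p of P3H2 was above 0.05 (0.0381 to 0.0764).

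Among the 6 tested genes for procollagen processing and other crosslinkers, TLL1, a protease related to BMP1 that trims procollagen and activates lysyl oxidase, rose by 0.75 (adjusted p = 0.0215), from 2.06 and 1.98 FPKM in HCC827 to 4.43, 4.18 and 3.64 FPKM in HCC827/GR. Its adjusted p, too, stayed under 0.05 without HCC827/GR replicate 3 and not without any of the others (0.0427 to 0.103). None of the 6 fell, by adjusted or by unadjusted p. Transglutaminase 2 (TGM2), which crosslinks proteins without lysyl oxidase, was the most abundant gene of that list and spread widely. It had 19.7, 6.46 and 27.2 FPKM in HCC827/GR and 33.9 and 32.4 FPKM in HCC827, with no overlap and an adjusted p of 0.331. BMP1 had 3.85 ± 0.523 FPKM (SD, n = 3) against 3.17 ± 0.183 FPKM (SD, n = 2) and an adjusted p of 0.357.

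Several collagen chains differed by more than any of the 6 tested enzymes. Of the basement membrane chains, 4 of 6 were tested, 2 rose and 1 fell. COL4A1 had 26.2, 25.2 and 27.7 FPKM in HCC827/GR and 2.13 and 2.54 FPKM in HCC827 (log2 fold change 3.04, adjusted p = 0.00157), and its partner chain COL4A2 had 25.1, 23.0 and 24.2 FPKM against 5.67 and 6.33 FPKM (1.84, adjusted p = 0.00248). COL4A5 fell by 0.88 (adjusted p = 0.0407), and COL4A6 had 0.339 ± 0.105 FPKM (SD, n = 3) and 0.958 ± 0.152 FPKM (SD, n = 2) with an adjusted p of 0.0916. Without any 1 library the adjusted p of COL4A5 was above 0.05, from 0.0628 to 0.131.

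Of the 11 fibrillar chains, 3 were tested. COL5A1 rose by 1.43 (adjusted p = 0.0106), from 1.31 and 1.56 FPKM to 6.59, 5.13 and 5.01 FPKM, and COL27A1 by 0.91 (adjusted p = 0.0117), from 0.948 and 1.03 FPKM to 2.94, 2.71 and 2.57 FPKM. COL1A1, the major chain of fibroblast collagen, had 0.704 ± 0.181 FPKM (SD, n = 3) and 0.562 ± 0.241 FPKM (SD, n = 2) and an adjusted p of 0.700. None of the 3 tested chains fell, by adjusted or by unadjusted p, and the other 8 were below 0.5 FPKM on average. COL5A1 was above an adjusted p of 0.05 without either HCC827 library (0.0356 to 0.0710 over the 5 libraries), and COL27A1 without each library except HCC827/GR replicate 3 (0.0405 to 0.0705). With a pseudocount of 0.1, the log2 fold change of COL27A1 was 1.38. The ratio of PLOD3 to COL4A1, chosen after the values were seen, was 0.702, 0.723 and 0.731 in HCC827/GR and 5.16 and 5.27 in HCC827, both per length. For the partner chain COL4A2 the ratio differed less, with 0.734, 0.790 and 0.839 in HCC827/GR and 1.94 and 2.11 in HCC827.

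Elastic fibre components, the other substrates of lysyl oxidases, were mixed. Elastin itself (ELN), named for its role and with its values seen, was at most 0.049 FPKM. FBLN1, a fibulin of basement membranes and elastic fibres, rose by 3.26 (adjusted p = 0.00234), from 0.273 and 0.244 FPKM to 12.6, 9.17 and 11.8 FPKM. FBLN5, which brings elastin and lysyl oxidases together, rose by 0.87 (adjusted p = 0.0176), from 0.219 and 0.215 FPKM to 1.22, 1.25 and 1.21 FPKM. EFEMP1, another fibulin, fell by 2.97 (adjusted p = 0.00234), from 17.2 and 21.7 FPKM to 1.80, 1.38 and 1.60 FPKM. The other 4 of the 7 tested did not pass, among them the latent TGF-beta binding proteins LTBP3 (4.90 ± 0.794 and 8.57 ± 1.69 FPKM, adjusted p = 0.0814) and LTBP2 (3.42 ± 0.539 and 2.13 ± 0.186 FPKM, adjusted p = 0.102). With a pseudocount of 0.1 in place of 1, the log2 fold change was 4.97 for FBLN1 and 2.07 for FBLN5. For FBLN5 the adjusted p was 0.0655 to 0.0775 when any 1 library was left out.

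Copper supply, on which lysyl oxidases depend, gave no call, with 0 of 7 tested genes past an adjusted p of 0.05 in limma. At an unadjusted p under 0.05, 4 were higher (SLC31A1, SLC31A2, ATP7B and CCS) and 1 lower (ATP7A), beside 13.4% and 13.8% of all entries. SLC31A2, ATP7A and ATP7B are named here after their values were seen. The entries of ATP7A and COX17 join other genes, so their values cannot be assigned to these genes alone. The copper importer SLC31A1 had 3.65 ± 0.563 FPKM (SD, n = 3) and 2.56 ± 0.124 FPKM (SD, n = 2), with an adjusted p of 0.151, and the copper chaperone CCS 3.71 ± 0.196 and 2.76 ± 0.0432 FPKM, with an adjusted p of 0.0967.

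The hypoxia pathway was examined because it is known to control several of the enzymes. Of the 6 tested genes of oxygen sensing, 0 rose and 1 fell, and 0 were higher at an unadjusted p under 0.05. EGLN3, an oxygen-sensing prolyl hydroxylase that is itself induced by hypoxia, had 0.125, 0.266 and 0.0916 FPKM in HCC827/GR and 3.0 and 2.75 FPKM in HCC827 (log2 fold change -1.74, adjusted p = 0.00552, and -3.57 with a pseudocount of 0.1). EPAS1, which encodes HIF-2 alpha, had 20.1 ± 1.57 FPKM (SD, n = 3) and 18.2 ± 0.913 FPKM (SD, n = 2), and the oxygen sensor EGLN1 had 10.9 ± 1.03 and 10.4 ± 0.503 FPKM. Neither passed (adjusted p = 0.490 and 0.807). HIF1A has no entry of its own. Of the 10 tested hypoxia-induced genes outside collagen, 0 passed. At an unadjusted p under 0.05, 1 was higher (ADM) and 1 lower (VEGFA), beside 13.4% and 13.8% of all entries. Both were named after their values were seen. The most abundant were ERO1A with 21.6 ± 2.09 FPKM and 19.3 ± 9.27 FPKM and PFKFB3 with 16.2 ± 3.0 and 13.5 ± 0.179 FPKM (adjusted p = 0.694 and 0.459). The median log2 fold change was 0.018 over the genes of oxygen sensing and 0.023 over the hypoxia-induced genes.

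**Figure D4:**
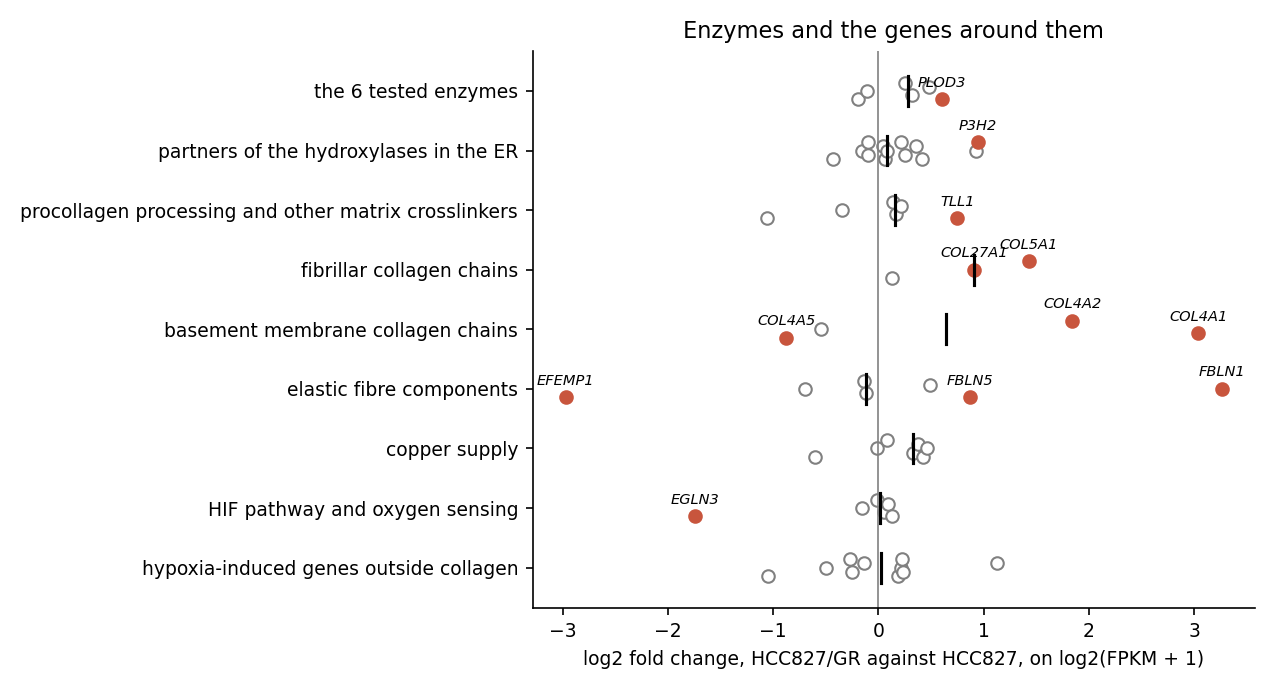
Log2 fold change of HCC827/GR against HCC827 on log2(FPKM + 1) for the tested enzymes and for each tested gene of the 8 lists, with filled and named points at an adjusted p under 0.05 and a black bar at the median of each list. The enzymes lie between -0.19 and 0.60, whereas COL4A1 and FBLN1 exceed 3.

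LOXL1-AS1, an antisense gene that overlaps the start of LOXL1, had 0.395, 0.157 and 0.202 FPKM in HCC827/GR and 0.637 and 0.185 FPKM in HCC827. These levels are near those of LOXL1. P4HA2-AS1, which overlaps the end of P4HA2, had 1.48 FPKM in HCC827/GR replicate 1 and a listed value of 0 elsewhere. It has 2 entries, and these values are of the entry with the highest mean only, not of the whole gene. The use of strand in the counting is not given in the sources used here, so that reads of LOXL1 and P4HA2 and of their antisense genes cannot be told apart. Neighbouring genes on the chromosome were compared too. Of the 10 nearest tested protein-coding genes of PLOD3, 9 had a positive log2 fold change, with a median of 0.28, and 2 were called higher. For PLOD1 and P4HA2, too, 2 of 10 neighbours were called higher, with 6 and 8 positive. For LOXL3, 1 was called higher, for PLOD2 1 was called lower, and for P4HA1 0 were called. By the same rule 5.26% of all entries rose and 5.71% fell. The neighbours of PLOD1 had a median of 0.18, those of P4HA2 0.18, of LOXL3 0.090, of P4HA1 -0.063 and of PLOD2 -0.21, so that for PLOD2 the median of the neighbours was as low as the gene itself. The part of a shared change of these stretches in the members' values was not tested.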

How the data were processed

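The values are FPKM per gene or assembled locus and library, as the authors deposited them. According to the study's methods and the submitters' processing notes, cutadapt trimmed the reads, FastQC checked them, Bowtie2 and TopHat2 mapped them, and StringTie assembled transcripts, from which the authors estimated the deposited FPKM with StringTie and Ballgown. The notes name hg18. Tool versions are not given in the sources used here. The labels describe a small-RNA library and the study's methods an mRNA library. The table holds 1 further FPKM column, named as replicate 1 of the gefitinib-sensitive cells. It matches no deposited sample and was not used. Because the transcript identifiers in the table are Ensembl's, positions were taken from GENCODE release 29 (GRCh38), in which 135164 of 135299 identifiers were found. Transcripts of more than 1 gene are joined in 1491 entries.

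For each symbol, the entry with the highest mean was used. All entries whose mean reached 0.5 FPKM were compared on log2(FPKM + 1) with limma 3.58.1 in R 4.3.3 (lmFit, eBayes with a trend, two-sided), with Benjamini-Hochberg adjustment over all 16189 entries. Single sums and shares were compared by exact permutation of the libraries. Python 3.11.15, pandas 2.3.3 and scipy 1.17.1 were used for the rest. FPKM carry no counts. Steps between low values of single-transcript entries gave a relative depth of 0.922 to 1.26 (HCC827/GR replicate 1 set to 1), but only 47.9% to 52.9% of the low values were within 0.02 of a whole multiple of 0.5 step, so reads were not recovered. In simulated data for this comparison, over 16189 entries, limma recovered 83 of 100 changes of 2 on the log2 scale and 35 of 100 changes of 1, and called 5 unchanged entries. The changes were planted only in entries with a mean log2(FPKM + 1) above 2, a level that LOXL3 and P4HA2 do not reach. Far fewer entries were changed than the 1775 called in the data, so these rates need not hold for the members.

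The members and lists were chosen with earlier results of these data known. The genes named were all members and, from each list, up to 4 genes with an adjusted p under 0.05 and lowest p, up to 2 of the most abundant others, and markers of other cells above 1 FPKM. Genes named outside this rule are marked as such where they appear. Alternatives were another pseudocount (0.1), another filter (none, or 1 FPKM), 2 other scalings (median-ratio and quantile), limma without the trend, a covariate like Ballgown's, the replicate block, summed entries, the ratio of group means and each library left out.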

Additional observations from a re-analysis of the deposited data

How the results depend on the processing

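The rise of PLOD3 kept its direction under every alternative run, but its adjusted p in limma was under 0.05 in 5 of 15 settings, the reported comparison included, with a range from 0.0359 to 0.188. The log2 fold change was 0.60 with no filter (adjusted p = 0.0712), 0.61 with median-ratio scaling (0.0536), 0.60 without the trend (0.0538), 0.53 with the library covariate of Ballgown's kind (0.188) and 0.62 with the replicate block (0.150). It was 0.47 to 0.73 with single libraries left out. In these settings, those without an HCC827 library set aside, limma called 0 members higher, against 1 as reported. At an unadjusted p under 0.05, 1 to 3 were higher, and 0 were lower except 1 with no filter (LOXL4). In either direction, 6559 of all 36011 entries met the unadjusted rule with no filter. With the scaling, trend, covariate and block settings, 3412 to 4388 of 16189 did, and without single HCC827/GR libraries 3687 to 4053. P4HA1 turned from -0.11 to 0.067 with the replicate block and without HCC827/GR replicate 1, and to 0.090 without HCC827 replicate 2, and ran from -0.34 to 0.090 over the libraries left out. Among the 5 libraries used, replicate 1 occurs only in HCC827/GR. The block therefore takes up that library and gives the same fold changes as leaving it out, so the value of 0.067 is a single result. Why the sign of P4HA1 depends on single libraries was not tested. As a ratio of group means, which has no pseudocount, the log2 difference of LOXL3 was 0.56 and that of P4HA2 0.46. LOXL3 was at 0.48 with a pseudocount of 0.1 and P4HA2 at 0.18 with the covariate, and the smaller pseudocount also enlarged the changes of COL27A1 (1.38), EGLN3 (-3.57), FBLN1 (4.97) and FBLN5 (2.07). With single libraries left out, the difference in the LOX share ran from -11.1 to 4.84 percentage points and that of PLOD3 from 6.80 to 10.7. Of the list genes, 3 were higher and 1 lower with the Ballgown-type covariate, 3 to 7 were higher with single libraries left out, and 0 were higher and 0 lower with the replicate block, where 11 and 7 had an unadjusted p under 0.05. Among all entries tested, 1775 were called, against 145 with the covariate and 432 to 884 with single libraries left out. With the replicate block 0 were called, and 3545 had an unadjusted p under 0.05. That fit in effect leaves out HCC827/GR replicate 1 and spends further libraries on the replicate terms. Little is then left to measure the spread, so its lack of calls cannot show whether the replicate number matters.

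Replicates 2 and 3 occur in both lines. The differences between them correlated at 0.027 across 16189 entries, so the numbers were not taken as pairs. The limits are 3 libraries against 2, no read counts, no entry of its own for LOXL2, and levels of LOX, LOXL1 and LOXL4 too low for the test.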

Other observations

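Several genes around the enzymes spread more within a cell line than between the lines. COLGALT1, which adds galactose to hydroxylysine, was at 11.3, 21.4 and 10.6 FPKM in replicates 1, 2 and 3 of HCC827/GR, and at 10.2 and 21.4 FPKM in replicates 2 and 3 of HCC827. HIF1AN, an oxygen-dependent hydroxylase that restrains hypoxia-inducible factors, had 2.48, 8.51 and 3.96 FPKM against 8.72 and 2.16 FPKM, with replicate 2 highest in each line, as for P4HA1. FKBP14, a prolyl isomerase of the endoplasmic reticulum, had 8.69, 7.19 and 1.83 FPKM against 4.90 and 4.93 FPKM. SERPINH1, the collagen chaperone HSP47, did not spread in this way. It was lower in each HCC827/GR library (2.67, 2.31 and 2.54 FPKM) than in both HCC827 libraries (3.46 and 3.99 FPKM), with an adjusted p of 0.0737 from limma. These genes were chosen after their values were seen.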
